A study of Homo sapiens with 4 samples.

Results

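TRIM28 sites lying in coding exons or 3′UTRs of genes other than the ZNF zinc finger genes were described in LNCaP, a human prostate cancer line that responds to androgen. The sites of both TRIM28 lists were merged where they overlapped by at least 1 bp, which left 70468 sites on chromosomes 1 to 22 and X. A merged site was kept where its centre lay in a coding exon or 3′UTR of a protein-coding transcript and more than 2 kb from every transcription start site (TSS). Exons of genes whose symbol starts with ZNF, ZSCAN, ZKSCAN or ZFP were left out. These steps kept 1047 exonic sites, of which 401 lay in coding exons and 646 in 3′UTRs. They belonged to 949 genes or groups of overlapping genes. No level of binding entered the choice beyond presence in either list.

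The series holds 4 ChIP-seq samples of LNCaP cells with 1 sample per condition, so no difference between conditions has a replicate check. TRIM24 carrying an HA tag was pulled down through the tag, and TRIM28 through its own antibody. Every sample was kept for 3 days without hormone and then for 16 h with ethanol, the vehicle, or with 10 nM R1881, a synthetic androgen. HA-TRIM24 was stably expressed from a construct, so its level need not be that of the endogenous protein. For the TRIM28 samples the labels mention no tag, whereas the figure legend of the study names cells with HA-TRIM24. The lists hold 5232 TRIM24 sites with ethanol and 9363 with R1881, and 58201 TRIM28 sites with ethanol and 34574 with R1881. The TRIM28 ethanol library held 25145171 tags and the other 3 held 11606880 to 14231181, so its list reaches weaker sites. No input library was used in calling sites.

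TRIM28, also called KAP1, is a corepressor without a DNA-binding domain of its own. KRAB zinc finger proteins bring it to DNA, often to transposable elements, and it gathers the histone methyltransferase SETDB1 and HP1 proteins there. Its best known exonic targets are the 3′ ends of zinc finger genes, where the repeated finger codons lie. TRIM24 is a related bromodomain protein and a coactivator of the androgen receptor.

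TRIM28 sites in exons outside ZNF genes were only slightly denser than those in introns. Coding exons held 23.1 sites per Mb of sequence that the rule allowed (exact Poisson 95% interval 20.9 to 25.5) and 3′UTRs held 21.9 (20.3 to 23.7). Introns and 5′UTRs away from a TSS held 20.4 per Mb (20.1 to 20.7), and intergenic sequence held 18.4 (18.2 to 18.7). The interval of the 3′UTRs overlapped that of the introns, while the interval of the coding exons lay just above it. Within 2 kb of a TSS there were 61.0 sites per Mb, and exons of the excluded zinc finger genes held 104 (90.4 to 119). In the R1881 list the classes were closer, at 10.4 sites per Mb in coding exons, 10.6 in 3′UTRs and 9.86 in introns. GC content differed along with the class, at 50% of the allowed coding sequence, 41.3% of the 3′UTRs and 40.7% of the introns, and its part in the densities was not tested. These intervals cover counting error only.

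**Figure D1:**
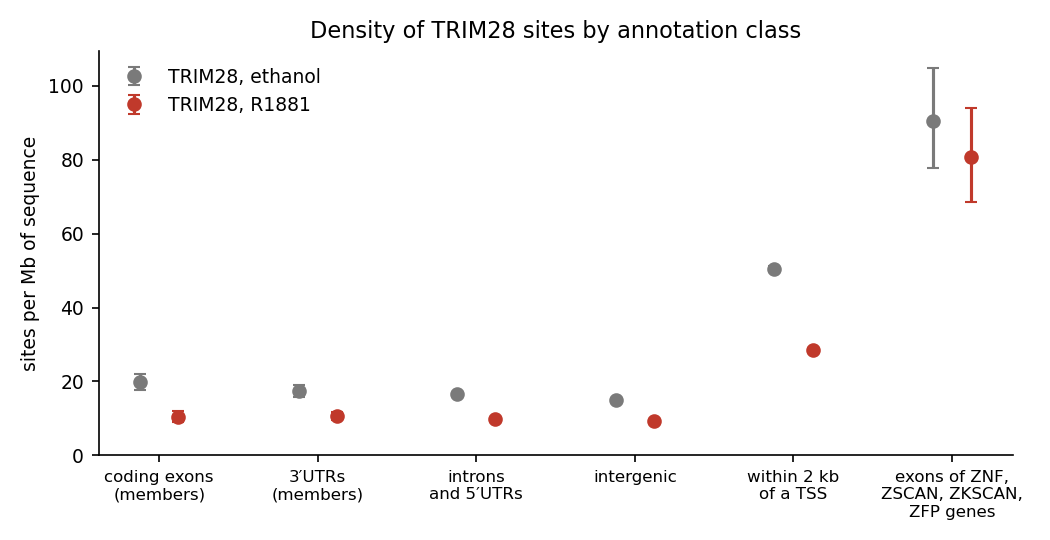
Sites per Mb of allowed sequence (vertical axis) in 6 annotation classes, for TRIM28 with ethanol (grey) and with R1881 (red). Points are densities and bars are exact Poisson 95% intervals. Coding exons and 3′UTRs outside ZNF genes sit close to introns in both lists, and exons of the excluded zinc finger genes sit highest, at 90.6 sites per Mb with ethanol and 80.6 with R1881.

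The sequences of the sites on which the results turn are shown first, read from GRCh37, the assembly that corresponds to hg19. The first set shows zinc finger codons inside exonic sites of genes that the symbol rule let through. Capitals mark the 21 bases of the linker that joins 2 fingers, on the coding strand, with 9 bases of the finger before it. All lie in coding-exon sites described below.
RBAK, chr7:5104762-5104791: agaagtcatTCAGAAGAGAAACCTTATGGA
KRBOX5, chr16:31766426-31766455: agaattcatACTGGAGAGAAACCCTATAAA
PRDM12, chr9:133556823-133556852: cgcctgcacACGGGCGAGCGCCCCTACAAG

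The second set comes from 3′UTR sites that TRIM24 also occupied in both treatments. Capitals mark a simple repeat, of which at most 30 bases are printed, or in CTC1 a match to the B box, an internal promoter element of tRNA genes. The B box was searched on both strands as GGTTCGA, then any 2 bases, then CC. Repeats are given on the forward strand, and each B box match on the strand where it was found.
KDSR, chr18:60998488-60998517: acaaagaaagaaAGAGAGAGAGAGAGAGAG
SRRM4, chr12:119598095-119598124: TCTCTCTCTCTCTCTCTCTCTCTCTCTCTC
ACVR2B, chr3:38534223-38534252: ACACACACACACACACACACACACACACAC
CTC1, chr17:8129555-8129584 (minus strand): ggagatcctgGGTTCGAATCCcagcggtgc
CTC1, chr17:8130312-8130341 (plus strand): cccgtacggGGTTCGAACCCgcgaccttgg

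The third set shows the best matches to motifs of known DNA-binding factors, in capitals, in the 200 bp around the centre of exonic sites. All lie inside the site except that of ZDHHC22, which runs past its end. Not all are exon sequence, since a site can reach beyond the coding exon that holds its centre. The matches of SCUBE3 and MUC5B lie wholly past the end of that exon, and those of CFAP58 and ZDHHC22 run past it. CTCF is the insulator protein and REST the repressor of neuronal genes. FOXA1 is the forkhead pioneer factor of the prostate, and the ARE is the element bound by the androgen receptor.
CTCF in SCUBE3, chr6:35209043-35209072: ggtggGCAGTGCCCTCTGCTGGCCAaagat
CTCF in UTRN, chr6:144803415-144803444: ctgccAAGGTGCCCTCTGGTGGCCAggagt
CTCF in BMAL2, chr12:27577724-27577753 (minus strand): acagaAAAGTGGCACCTAGTGGCCActtag
REST in MUC5B, chr11:1260261-1260290: agtcgGGCTCTGTCCGTGGTGCTGAagggt
REST in S100A7A, chr1:153395114-153395143: tgctgTGAGCTGTCCGTGGTGCTGAattca
REST in ZDHHC22, chr14:77600268-77600297 (minus strand): ctgcaGGAGCTGTCCTGGGTTCTGAaatgt
FOXA1 in CFAP58, chr10:106128306-106128335: gttggagctcAAAGTAAACAccaagttaca
ARE in GPRIN3, chr4:90166706-90166735 (minus strand): agtggctAGAACAGGCTGTCCCTgcattaa

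Most of the exonic sites were weak and were listed in only 1 treatment. Of the 1047, 856 were in the ethanol list and 493 in the R1881 list. Both lists held 123 coding-exon and 179 3′UTR sites, together 28.8% (Wilson 95% interval 26.2 to 31.7), beside 30.3% of all TRIM28 sites. Ethanol alone held 554 (52.9%) and R1881 alone 191 (18.2%), beside 51.5% and 18.1% of all sites. The exonic sites were thus split between the lists much as all TRIM28 sites were. In coding exons the R1881 list alone held 57 of 401 (14.2%, 11.1 to 17.97), and in 3′UTRs it held 134 of 646 (20.7%, 17.8 to 24.04). Depth and treatment differ together between the lists and cannot be told apart.

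Strength was read from the normalized tag count, which scales the tags in a site to 10000000 tags per sample. With ethanol it ran from 4.0 to 67.6 with a median of 6.2 over the 856 exonic sites, beside a median of 6.4 over all TRIM28 sites. With R1881 it ran from 5.6 to 55.5 with a median of 7.7 over the 493, equal to the median of all sites. The quartiles of the exonic sites with R1881 were 6.3 and 9.1. Only 79 of the 493 (16.0%) reached 10 normalized tags with R1881, beside 19.1% of all TRIM28 sites and 58.6% of the 162 sites in exons of the excluded zinc finger genes. Just 8 of the 493 (1.62%) reached 20 normalized tags with R1881, beside 2.42% of all TRIM28 sites, and the plot of tags in both treatments names their genes. Where a site had to stand at least 8 times above its surroundings, 452 exonic sites remained.

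**Figure D2:**
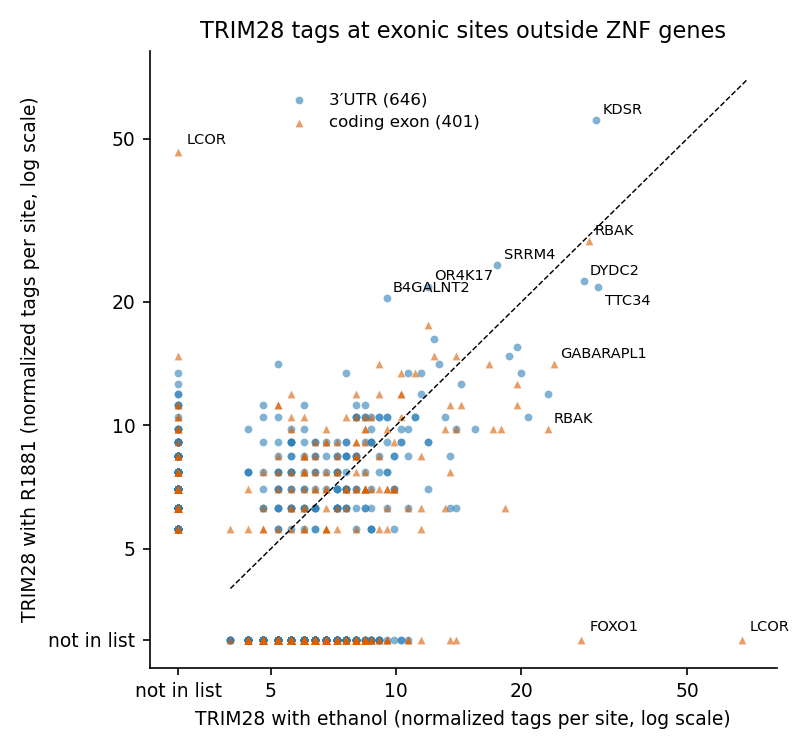
Normalized TRIM28 tags with ethanol (horizontal axis, log scale) and with R1881 (vertical axis, log scale) at the 1047 exonic sites, as orange triangles for coding exons and blue circles for 3′UTRs. Sites absent from a list are drawn on the line marked "not in list", and the dashed line marks equal values. Most sites lie near the lower limit of the lists, and KDSR and RBAK stand out in both.

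The strongest coding-exon sites held by both lists lay partly in genes that encode zinc fingers under another name. RBAK, a KRAB zinc finger protein that binds the retinoblastoma protein, had the strongest, in the last of its 4 coding exons (chr7:5104021-5104194). Its TRIM28 level was 29 normalized tags with ethanol and 28.1 with R1881, 17.9 and 20.7 times the surrounding 10 kb. A second RBAK site lay in the same exon, 598 bp away between centres (chr7:5104592-5104819). That site had 23.1 normalized tags with ethanol and 9.8 with R1881. KRBOX5, a gene with a KRAB box and 11 predicted fingers, had a site in the last of 5 coding exons (chr16:31766356-31766580) at 12.3 with ethanol and 14.8 with R1881. TRIM24 was called at none of the 3 in either treatment.

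Few of the exonic sites overlapped finger codons, which are also a small part of the allowed coding sequence. Only 4 of the 401 coding-exon sites overlapped codons of a C2H2 finger (0.998%, Wilson 95% interval 0.389 to 2.54), namely the pair in RBAK and those of KRBOX5 and PRDM12. Such codons made up 0.244% of the allowed coding bases, below that interval. A site can overlap codons that its centre does not touch, so these shares are not on the same scale. PRDM12, a regulator of pain-sensing neurons, had 8.0 normalized tags with ethanol and was not in the R1881 list. RefSeq lists a synonym with an excluded prefix for the genes of 15 of the 1047 sites, among them ZNF769 for RBAK. Such a synonym need not mean C2H2 fingers, since LTN1 and RNF115, also among them, had 0 predicted. Within 50 kb of a gene with an excluded prefix lay 12 of the 1047 exonic sites (1.15%, 0.657 to 1.99), beside 1.81% of the sites in introns and 1.67% of the intergenic sites away from a TSS.

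A hand-made list of C2H2 zinc finger genes with other symbols held 19 exonic sites, 4 in coding exons and 15 in 3′UTRs. The coding-exon sites were the pair in RBAK and those of PRDM12 and PRDM8. KRBOX5 is not on the list, nor is ZFR2, which had a 3′UTR site at 11.5 normalized tags with ethanol and 13.4 with R1881. They made up 1.81% of the 1047 (Wilson 95% interval 1.17 to 2.82), while the list made up 1.498% of the allowed sequence. The sites fell in 15 of the 183 genes (8.20%), beside 960 of 19182 protein-coding genes outside the excluded prefixes (5.00%). After RBAK, the strongest sites of the list were in 3′UTRs and lay below those of KRBOX5 and ZFR2. ZBTB20, a BTB-domain repressor, had 10.3 normalized tags with ethanol at the stronger of its 2 sites, which was not in the R1881 list. PLAGL2, an oncogenic transcription factor, had 10.3 with ethanol and 9.1 with R1881. ZFHX3, a tumour suppressor in prostate cancer, had 6.4 with ethanol and 9.1 with R1881. None of the 19 overlapped a TRIM24 site with R1881, beside only 7.16% of all 1047 exonic sites.

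The remaining strong coding-exon sites lay in genes of unrelated function. TTLL9, a tubulin-modifying ligase of cilia, had 11.9 normalized tags with ethanol and 17.6 with R1881 (chr20:30531073-30531275). WNT9B, a Wnt ligand, had 13.9 and 14.8 in the last of its 4 coding exons (chr17:44953921-44954104). USHBP1 had 16.7 and 14.1 in coding exon 5 of 12 (chr19:17370357-17370560). The exact 95% intervals of their R1881-to-ethanol ratios all contained 1, at 0.830 to 2.59 for TTLL9, 0.586 to 1.87 for WNT9B and 0.468 to 1.47 for USHBP1. GABARAPL1, an autophagy protein of the ATG8 family, had 23.9 normalized tags with ethanol and 14.1 with R1881 (chr12:10373026-10373236). TRIM24 was also called there, at 12.1 normalized tags with ethanol and 9.3 with R1881. Both proteins had fewer tags at the GABARAPL1 site with R1881 than with ethanol, and the TRIM28 ratio was 0.589 (0.336 to 0.991).

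The strongest 3′UTR sites held by both lists came from 6 genes without a shared function. KDSR, the reductase in the second step of sphingolipid synthesis, had 30.2 normalized tags with ethanol and 55.5 with R1881 (chr18:60998455-60998619). SRRM4, the splicing regulator of neuronal microexons, had 17.5 and 24.6 (chr12:119598009-119598177). DYDC2 had 28.2 and 22.5 (chr10:82126992-82127178). The KDSR and SRRM4 sites lay on the simple repeats printed above, 18 and 34 bp long. TTC34 had 30.6 normalized tags with ethanol and 21.8 with R1881 (chr1:2568341-2568516). OR4K17, an olfactory receptor, had 11.9 and 21.8 (chr14:20587065-20587229). B4GALNT2, the glycosyltransferase of the Sda blood group antigen, had 9.5 and 20.4 (chr17:47253499-47253669). TRIM24 was called at KDSR and SRRM4 and at none of the other 4.

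**Figure D3:**
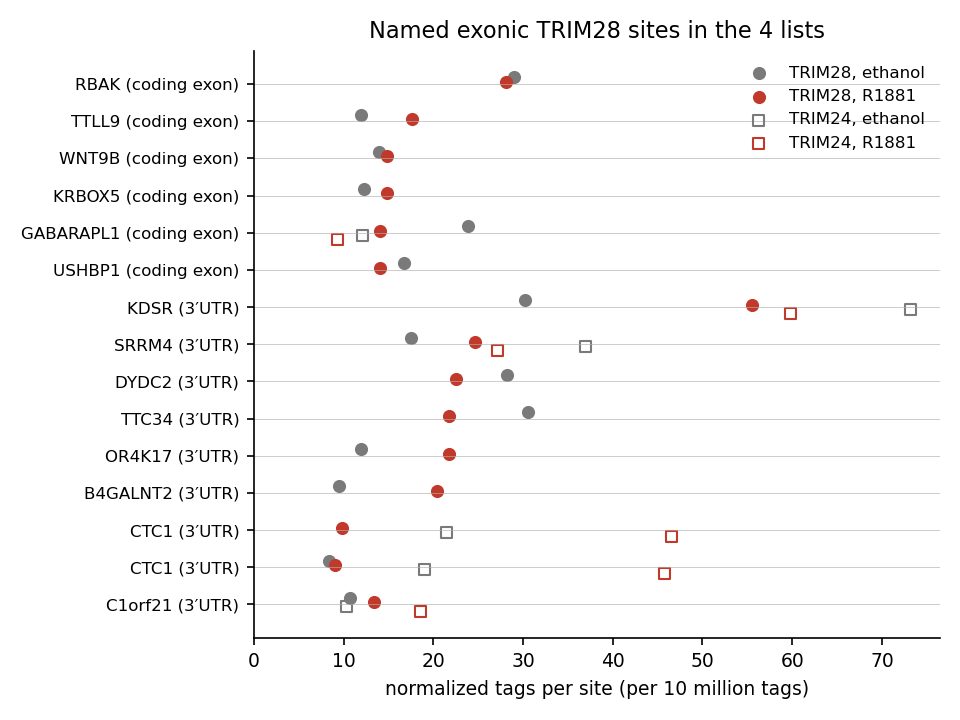
Normalized tags per site (horizontal axis, per 10000000 tags) by gene. Shown are the strongest exonic sites held by both TRIM28 lists. Also shown are those with the most TRIM24 tags with R1881 among sites with TRIM24 in both treatments. Circles are TRIM28 and squares are TRIM24, in grey with ethanol and red with R1881, and a missing symbol means that the site was not in that list. KDSR, SRRM4 and the CTC1 sites had more TRIM24 than TRIM28 tags in every treatment where both were called.

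The exonic sites overlapped TRIM24 sites about as often as other sites away from a TSS. With R1881, 75 of the 1047 overlapped a TRIM24 site (7.16%, Wilson 95% interval 5.75 to 8.89), beside 8.78% of all TRIM28 sites and 6.65% of the other sites away from a TSS. With ethanol, 34 did (3.25%, 2.33 to 4.50), beside 5.23% of all TRIM28 sites and 3.90% of the others away from a TSS. The share was 8.23% in coding exons and 6.50% in 3′UTRs with R1881, with intervals that overlapped (5.92 to 11.3 and 4.85 to 8.67). Sites within 2 kb of a TSS overlapped more often, at 13.1% with R1881 (12.7 to 13.6). Of the 209 sites in exons of the excluded zinc finger genes, 0 overlapped a TRIM24 site in either treatment, which allows a share of up to 1.44%. That limit lay below the Wilson interval of the exonic sites in both treatments. At a local fold of at least 8 the share of exonic sites with TRIM24 and R1881 was 10.8%.

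**Figure D4:**
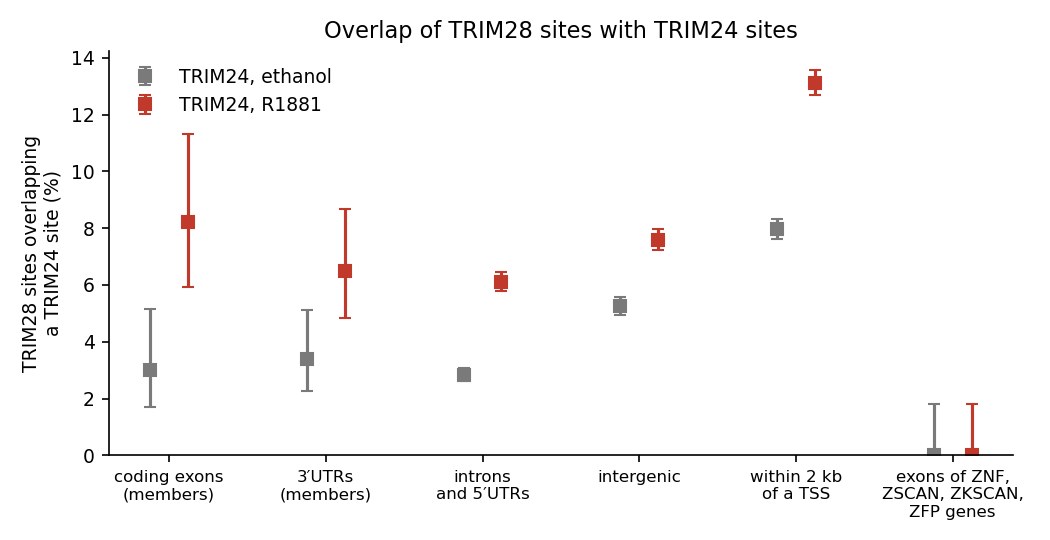
Percent of TRIM28 sites that overlapped a TRIM24 site by at least 1 bp (vertical axis) in 6 annotation classes, for TRIM24 with ethanol (grey) and with R1881 (red). Points are shares and bars are Wilson 95% intervals over sites. Coding exons and 3′UTRs outside ZNF genes sit near introns, and exons of the excluded zinc finger genes sit at 0.

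Overlap with TRIM24 was more frequent at stronger TRIM28 sites. Among exonic sites of the R1881 list below 8 normalized tags, 21 of 298 overlapped a TRIM24 R1881 site (7.05%, 4.66 to 10.5). From 8 to 12 normalized tags 29 of 165 did (17.6%, 12.5 to 24.1), and from 12 on 13 of 30 did (43.3%, 27.4 to 60.8). All TRIM28 sites of that list showed shares of 8.20%, 17.3% and 33.3% over the same ranges. Sites held by both TRIM28 lists accounted for 45 of the 75. Of the exonic sites held by ethanol alone, 12 of 554 overlapped a TRIM24 R1881 site (2.17%), and of those held by R1881 alone, 18 of 191 did (9.42%). Over all TRIM28 sites these shares were 4.20% and 9.95%.

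TRIM24 was called in both treatments at 16 exonic sites, 1.53% of the 1047 (Wilson interval 0.943 to 2.47). The share was 2.705% over all TRIM28 sites, above that interval, and 2.12% over the other sites away from a TSS, inside it. KDSR had the highest TRIM24 level, 73.2 normalized tags with ethanol and 59.8 with R1881, numerically above its TRIM28 level in each treatment. TRIM24 and TRIM28 were pulled down through different antibodies, so their tags are not on a common scale of occupancy. SRRM4 had 37 and 27.2. C1orf21 had 10.3 TRIM24 tags with ethanol and 18.6 with R1881, and 10.7 and 13.4 TRIM28 tags (chr1:184591457-184591682). The 3′UTR of CTC1, a subunit of the telomere-replicating CST complex, held the other 2 of the top 5. One CTC1 site (chr17:8129473-8129667) had 19.0 TRIM24 tags with ethanol and 45.8 with R1881, against 8.4 and 9.1 TRIM28 tags. The other (chr17:8130258-8130414) had 21.5 and 46.6 TRIM24 tags and was in the TRIM28 list only with R1881, at 9.8. In RefSeq the span of CTC1 contains 3 tRNA genes, TRT-AGT1-2, TRS-AGA2-6 and TRI-AAT4-1, and these 2 sites are the only exonic sites with a B box match in the 200 bp searched. The matches were not placed within those tRNA genes, whose RefSeq coordinates are on another build. Over the 16 sites, the median log2 ratio of TRIM24 tags with R1881 to ethanol was -0.16, and it was -0.03 over the 1906 TRIM28 sites with TRIM24 in both lists.

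At exonic sites held by both TRIM28 lists, the level with R1881 was close to that with ethanol. The median log2 ratio over these sites was 0.10, beside 0.08 over all 21372 TRIM28 sites held by both. Among exonic sites with a local fold of at least 8 it turned to -0.12, and the value over all TRIM28 sites at that fold is not given. That cut falls unequally on the lists. A fold of 8 lies near the upper quartile of the exonic sites with ethanol (8.23) and below their median with R1881 (9.01). Its part in the sign was not tested. Of the exonic sites in both lists, 36 had at least 1.5-fold more tags with R1881 (11.9%, Wilson 95% interval 8.74 to 16.1). The share was 13.1% over all sites in both lists. At least 1.5-fold fewer were found at 28 (9.27%, 6.49 to 13.1), beside 7% of all sites. Both shares were near those of all TRIM28 sites. In 3′UTRs 26 of 179 were higher with R1881 and 13 lower, and in coding exons 10 of 123 were higher and 15 lower. The exact 95% interval of the ratio, from the tag numbers alone, lay above 1 at 5 of these exonic sites (1.66%, Wilson 95% interval 0.709 to 3.82), beside 2.11% of all sites in both lists. It lay below 1 at 7 (2.32%, 1.13 to 4.71), beside 0.992% of all sites in both lists. These counts carry no adjustment for the number of sites.

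Among the 142 sites with at least 20 tags in either list, the 3 highest ratios were at 3′UTR sites. GPRIN3, a neurite growth protein that binds G protein subunits, had 5.2 normalized tags with ethanol and 14.1 with R1881, a ratio of 2.72 (exact 95% interval 1.29 to 5.95). This is the site with the full ARE match printed above, and TRIM24 was called there with R1881 only, at 12.4 normalized tags. B4GALNT2 followed at 2.14 (1.20 to 3.83) and KDSR at 1.84 (1.32 to 2.55). The lowest ratios were at PRKDC, the catalytic subunit of DNA-dependent protein kinase, at the second RBAK site and at NID1, a basement membrane protein. The coding-exon site of PRKDC had 18.3 normalized tags with ethanol and 6.3 with R1881, a ratio of 0.346 (0.149 to 0.715). The second RBAK site had a ratio of 0.426 (0.220 to 0.774), while the first, in the same exon, had 0.968 (0.641 to 1.44). The 3′UTR site of NID1 had 13.9 and 6.3, a ratio of 0.454 (0.192 to 0.964). The merged sites of NID1 (chr1:236140607-236140894) and the second RBAK site are longer than the 165 and 157 bp of sites called with ethanol and R1881. Their ratios therefore compare tags in windows that overlap only in part, as can happen at any merged site. The sites with the highest and lowest ratios were chosen by the ratio, and each could reach 20 tags through its higher list alone. Their intervals are therefore no test of a difference. All intervals given here cover counting error in 2 libraries and not variation between cultures.

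The highest values of all among coding exons came from LCOR, the ligand-dependent corepressor of nuclear receptors, and were chosen for description after they were seen. The ethanol list had a site of 67.6 normalized tags in its last coding exon (chr10:98742087-98742251). The R1881 list had a site of 46.4 in the same exon, 1066 bp away between centres (chr10:98743157-98743313), so the exon was high in both treatments although no merged site was. They stood only 4.07 and 4.65 times above the surrounding 10 kb, where 4 was the lowest value accepted. The level per site implied for the surroundings was 16.6 normalized tags with ethanol and 9.98 with R1881, the highest of all exonic sites, whose medians were 0.830 and 0.777. Other high values in a single list were 27.8 at FOXO1, a forkhead factor of insulin signalling, with ethanol only and 14.8 at CFAP58, a protein of sperm flagella, with R1881 only. The FOXO1 site stood 25.9 times above its surroundings.

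Exonic sites were spread thinly over genes. A single site was found in 863 of the 949 genes or gene groups, 2 sites in 76, 3 in 8 and 4 in 2. RNF130, a ubiquitin ligase, had 4 sites, 3 in its 3′UTR and 1 in a coding exon, at 6.3 to 9.1 normalized tags. TCHH, the trichohyalin of hair follicles, also had 4, all in its last coding exon, at 6.8 to 8.4 normalized tags and none of them in both lists. DLL3, an inhibitory Notch ligand, had 3 coding-exon sites of 5.2 to 7.6, all with ethanol only. FBXL4, FNBP1L and LANCL1 had 3 each in their 3′UTRs, with 6.3 to 8.7, 5.2 to 9.1 and 6.3 to 7.6 normalized tags. NIBAN1 had 3 sites, 2 in coding exons and 1 in a 3′UTR, of 7.7 to 8.4 and all with R1881 only. CTC1 completed the genes named for their number of sites, with a further site (chr17:8130040-8130204) of 6.4 normalized TRIM28 tags and 19.8 TRIM24 tags, both with ethanol only. Apart from CTC1, none of the sites named here for their number overlapped a TRIM24 site, beside 8.88% of all exonic sites in either treatment.

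Lists of genes chosen for their known biology differed in the share of genes that held an exonic site. In the list of 50 androgen response genes, 4 did (8%), beside 5.00% of all protein-coding genes. The coding-exon site of PIAS1, a SUMO ligase and coregulator of the androgen receptor, had 13.5 normalized tags with ethanol and 7.7 with R1881, a ratio of 0.572 (exact 95% interval 0.261 to 1.16). The 3′UTR sites of SLC45A3, a prostate transporter, CAMKK2, a calcium-dependent kinase, and FKBP5, a chaperone, had 6.4, 6.0 and 5.2 normalized tags with ethanol and were not in the R1881 list. Long or repetitive coding genes held 6 sites in 3 of 33 genes (9.09%), again beside 5.00% of all protein-coding genes. Of these sites, 4 lay in TCHH and 1 in the mucin MUC5B, at 9.9 with ethanol and 9.1 with R1881. The last lay in the mucin MUC16, at 5.6 with ethanol only. The 53 clustered protocadherins and the 31 partners of TRIM28 held 0 exonic sites, in short lists set beside the same 5.00%. None of the sites in these lists overlapped a TRIM24 site with R1881, beside only 7.16% of all exonic sites.

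Motifs of known factors were uncommon at the exonic sites and occurred at shares near those of all TRIM28 sites. The CTCF motif, with up to 3 mismatches in the 200 bp around the centre, occurred at 12 of the 1047 (1.15%, Wilson 95% interval 0.657 to 1.99), beside 0.765% of all 70468 sites. With up to 2 mismatches the share was 0.287% and with up to 4 it was 3.63%. SCUBE3, a secreted protein, carried it with 2 mismatches at 8.4 normalized tags with ethanol and 7.0 with R1881. UTRN, the dystrophin relative, and BMAL2, a circadian factor, also had 2 mismatches, at 6.4 and 5.6 with ethanol only. The REST motif occurred at 5 (0.478%, 0.204 to 1.11), beside 0.314% of all sites. It was found with 2 mismatches in MUC5B and in S100A7A, an antimicrobial S100 protein, which had 7.6 with ethanol and 9.1 with R1881. ZDHHC22, a palmitoyltransferase, had 3 mismatches and 8.4 normalized tags with R1881 only. A match is a description of the sequence and does not show that the factor was bound.

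Motifs of androgen signalling followed the same course. FOXA1 without mismatch occurred at 14 exonic sites (1.34%, 0.798 to 2.23), beside 0.961% of all sites. At exonic sites held by R1881 alone it occurred at 6 of 191 (3.14%, 1.45 to 6.68), beside 1.46% of all TRIM28 sites held by R1881 alone, a share inside that interval by a narrow margin. The ARE with up to 1 mismatch occurred at 7 (0.669%, 0.324 to 1.37), beside 0.431% of all sites, and only GPRIN3 had it in full. The NF1 motif occurred at 5 (0.478%) and the AP-1 motif at 27 (2.58%, 1.78 to 3.73), beside 0.389% and 2.80% of all sites. Each of the 6 shares had an interval that contained the share of all sites.

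Within genes, the share of coding-exon sites at the 3′ end was close to its share of sequence. The last coding exon of the longest coding transcript held 85 of the 401 (21.2%, Wilson 95% interval 17.5 to 25.5), beside 21.4% of the allowed coding sequence. In 3′UTRs, 194 of 646 sites lay in the first tertile of the exon piece, 209 in the middle and 243 in the last (37.6%, 34.0 to 41.4). The share of allowed sequence in each tertile is not given, so these counts do not show a preference for either end. The median GC content of the 200 bp was 50.5% at coding-exon sites and 45.0% at 3′UTR sites, beside 47.5% at all TRIM28 sites.

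The exonic sites were unevenly spread over chromosomes. Over all of them there were 22.4 sites per Mb of allowed exons. Chromosome 20 had 41.2 (48 sites, exact Poisson 95% interval 30.4 to 54.6), chromosome 1 had 32.3 (162 sites, 27.5 to 37.6) and chromosome 16 had 32.0 (46 sites, 23.4 to 42.7). Chromosome X had 4.16 (8 sites, 1.79 to 8.19), chromosome 13 had 13.1 (15 sites, 7.30 to 21.5) and chromosome 2 had 15.3 (57 sites, 11.6 to 19.8). Chromosome 19, where zinc finger genes are clustered, had 20.5 (30 sites, 13.8 to 29.3), an interval that contained the overall density. Chromosome 20 held 4.58% of the exonic sites and 2.50% of all TRIM28 sites, and chromosome X held 0.764% and 1.05%. In the same order, chromosome 1 held 15.5% and 11.2%, and chromosome 16 held 4.39% and 3.38%. Chromosome 2 held 5.44% and 6.19%, and chromosome 13 held 1.43% and 1.57%.

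**Figure D5:**
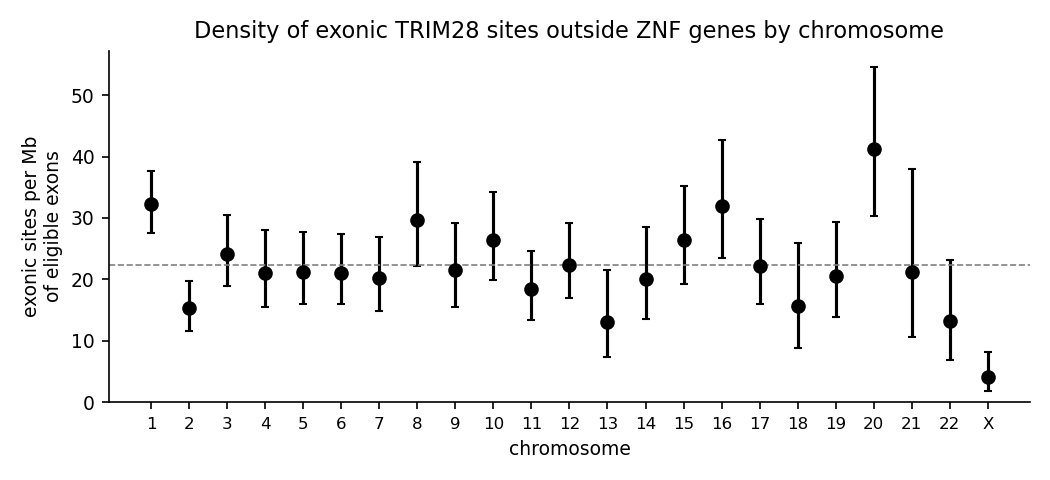
Exonic TRIM28 sites outside ZNF genes per Mb of allowed exons (vertical axis) on each chromosome (horizontal axis). Points are densities, bars are exact Poisson 95% intervals, and the dashed line marks 22.4 sites per Mb over all chromosomes. The intervals of chromosomes 1, 16 and 20 lie wholly above the line, and those of chromosomes 2, 13 and X wholly below it.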

How the data were processed

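The authors aligned reads to hg19 with BWA 0.6.1 and called sites per sample with HOMER 4.1, without input, at a false discovery rate of 0.001. A site also had to reach 4 times the density of the 10 kb around it, with a Poisson p no larger than 1e-04. They deposited a signal per site (tags per 10000000 tags), a focus ratio as a fraction, a fold over the local region, a p-value against that region and a peak score. The score and p-value were not used here. Sites are 155 to 165 bp long.

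Merged sites were placed on GENCODE release 44 for GRCh37, with coding exons taking precedence over 3′UTRs, and dropped where any gene at the centre had an excluded prefix. Tag numbers were recovered from the signal as whole tags (within 0.136 tags at 100% of sites) for exact conditional binomial intervals of ratios. With 1 sample per condition no test was run, and shares carry Wilson 95% intervals over sites. Consensus motifs came from the motif table of the study, with up to 3 mismatches (CTCF, REST), 1 (ARE, NF1) or 0 (FOXA1, AP-1).

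Named genes were the 6 coding-exon and 6 3′UTR sites with the most R1881 tags among those in both lists. Added were the 5 with the most TRIM24 R1881 tags among those with TRIM24 in both lists, and the 3 highest and 3 lowest ratios. So were up to 8 genes with at least 3 sites and the 5 strongest sites of each gene list. The 3 best CTCF and REST matches completed the set. The members and lists were chosen with earlier results of these data known. LCOR, FOXO1, CFAP58, PRDM12, MUC16, repeats and the B box were added after values were seen. Results for some items are not reported here. Scripts in Python 3.11.15 with scipy 1.17.1 and pandas 2.3.3 were tested on simulated data.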

Additional observations from a re-analysis of the deposited data

Results flagged for a closer look

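With R1881, fewer exonic sites were in the TRIM28 list and more overlapped a TRIM24 site, as was so over all TRIM28 sites. Exonic sites in the TRIM28 list numbered 856 with ethanol and 493 with R1881, a log2 ratio of -0.80. Exonic sites that overlapped a TRIM24 site numbered 34 with ethanol and 75 with R1881, a log2 ratio of 1.14. Over all merged TRIM28 sites, 57689 were in the list with ethanol and 34151 with R1881. Those that overlapped a TRIM24 site numbered 3682 with ethanol and 6190 with R1881. The difference was not tested, since each list comes from 1 sample. Total tags moved the same way, from 25145171 to 14231181 for TRIM28 and from 11606880 to 12884097 for TRIM24, and their part in the result was not tested.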

How the results depend on the processing

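With 1 sample per condition no replicate could be left out, and no test threshold applied. Of 100 recomputed values, 77 stayed within the interval of the reported value (for the number of sites, within 1.5 times). The number of exonic sites was 668 beyond 5 kb of a TSS, 452 at a local fold of at least 8 and 556 among the sites of each list at or above its median strength. The share in coding exons was 41.4% beyond 1 kb, 44% with TSSs of protein-coding transcripts only, 44.6% with the longest transcript per gene, 53.1% with any overlap with an exon and 41.6% at a local fold of at least 8. Any overlap with an exon gave 11.6% in the last coding exon. The share in both lists was 20.8% when merging needed 50% reciprocal overlap and 23.9% among those stronger sites. TRIM24 overlap with R1881 was 10.8% at a local fold of at least 8 and 10.8% among those stronger sites, and with ethanol 4.65% and 5.396%. The median log2 ratio turned to -0.12 at a local fold of at least 8, and was 0.012 when scaled to the median of all sites and 0.19 by fold over the local region. Median normalized tags were 8.4 at a local fold of at least 8, 9.1 among those stronger sites and 6.2 with ethanol in place of R1881. The CTCF share was 0.287% with up to 2 mismatches and 3.63% with up to 4. A stricter fold or strength keeps fewer sites by construction, and the cause of the other shifts was not tested.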

Other observations

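Simple repeats and the tRNA B box were searched after the KDSR, SRRM4 and CTC1 sites had been seen, so the values describe these sites and are no test. A perfect tandem repeat of at least 18 bp with a unit of up to 6 bp lay in the 200 bp around the centre of 14 exonic sites (1.34%, Wilson 95% interval 0.798 to 2.23), beside 2.69% of all TRIM28 sites. Of these 14, 6 overlapped a TRIM24 site with R1881 (42.9%, 21.4 to 67.4) and 5 with ethanol, beside 27.6% and 22.9% of the 1894 TRIM28 sites with such a repeat. Among the 6 were KDSR, SRRM4, ACVR2B, an activin receptor, BDH1, a ketone body enzyme, and CLOCK, the circadian factor. The repeat sites of BDH1 and ACVR2B were in the TRIM28 list with R1881 only, at 11.9 and 5.6, and had 15.5 and 12.4 TRIM24 tags with R1881 on a GT and an AC repeat of 72 bp each. The other 8 sites, among them SBK1 with a CT repeat of 48 bp, had no TRIM24 site in either treatment. The part of repeats in read alignment at these sites was not tested.

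A match to the B box occurred at 2 of the 75 exonic sites with a TRIM24 site with R1881, both in CTC1, and at 0 of the other 972. Over all TRIM28 sites it occurred at 141 of the 6190 with a TRIM24 site (2.28%) and at 30 of the other 64278 (0.0467%).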
